A study of Mus musculus with 2 samples.

Results

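The genes described here encode proteins of glucose uptake, glycolysis, lactate production and export, and a kinase that limits the oxidation of pyruvate in mitochondria. They are Slc2a1, Hk2, Pfkl, Aldoa, Pgk1, Eno1, Pkm, Ldha, Slc16a3 and Pdk1. All their probe sets in the deposited value table were taken, named through the annotation of the array platform. This gave 22 probe sets for 9 of the 10 genes, out of 18193 genes with a named probe set in all, and Eno1 is named only. Signal was measured in 1 culture of Foxj3 knockout (KO) myoblasts and 1 culture of Foxj3 wild-type (WT) myoblasts, with 1 Affymetrix Mouse430_2 array each. Foxj3 encodes a forkhead transcription factor, and myoblasts are the dividing precursors of skeletal muscle fibres. Both cultures were mouse skeletal myoblasts at passage 3, kept in DMEM with 20% fetal bovine serum and harvested at 80% confluency. The labels give neither the strain, age and sex of the animals, nor the part of Foxj3 that was removed, nor whether cells of several animals were pooled. With no second array in either group, no test was possible and every value describes these 2 arrays.

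Glycolysis splits glucose into pyruvate and yields ATP without oxygen. Cells that run it fast turn pyruvate into lactate and export it, and dividing cells often do so even in air. When oxygen is short, the transcription factor HIF, a pair of HIF-alpha and ARNT proteins, raises transcription of glucose carriers, glycolytic enzymes, the lactate exporter and Pdk1. The kinase made from Pdk1 phosphorylates and inhibits pyruvate dehydrogenase in the mitochondrial matrix, which limits the conversion of pyruvate to acetyl-CoA. Differentiating muscle cells also switch on muscle forms of several of these enzymes.

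The values are linear signal intensities, with a median over 45037 probe sets of 63.94 on the KO array and 62.03 on the WT array. A probe set was counted as measured if it read over 47.04, the 40th percentile of both arrays together, on at least 1 array, and 14597 genes were. Having 2 arrays limits how precise any value is. Foxj3 read 77.28 on the KO array and 495.51 on the WT array by its brightest probe set, and 99.40 (KO) and 79.74 (WT) by another, so its probe sets differed in direction. All 11 myoblast markers were over the floor on both arrays, 5 lower in KO and 6 higher, with summed signals of 8988 (KO) and 7219 (WT). The only technical spread to be had was between probe sets of 1 gene. In 3047 genes exactly 2 probe sets exceeded the floor on each array, and the log2 ratios of such a pair differed with an SD of 0.89, equal to 0.63 per probe set, and had the same sign in 52.8% of genes.

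Most of the 9 genes read lower on the KO array than on the WT array. By the brightest probe set of each gene, 8 of 9 had a log2 ratio (KO over WT) below 0, while 53.7% of all measured genes did. The lactate exporter Slc16a3 and the kinase Pdk1 were at least 2-fold lower in KO, which makes 2 of 9 genes beside a background of 6.72% of all measured genes, and 0 of 9 were at least 2-fold higher, beside 3.73%. The median log2 ratio of the 9 genes was -0.52, a KO signal of 69.9% of WT, against -0.06 over all measured genes. Of the 9 genes, 4 (Slc16a3, Pdk1, Slc2a1 and Hk2) were lower by more than 0.63, the spread per probe set, as were 17.4% of all measured genes. The other 5 genes lay within that spread of 0. Counted over all 21 measured probe sets in place of 1 per gene, 15 were below 0, with 51.1% of all measured named probe sets as background. At least 2-fold lower were 3 of the 21, beside 6.67%, and at least 2-fold higher were 0 of the 21, beside 5.62%.

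**Figure D1:**
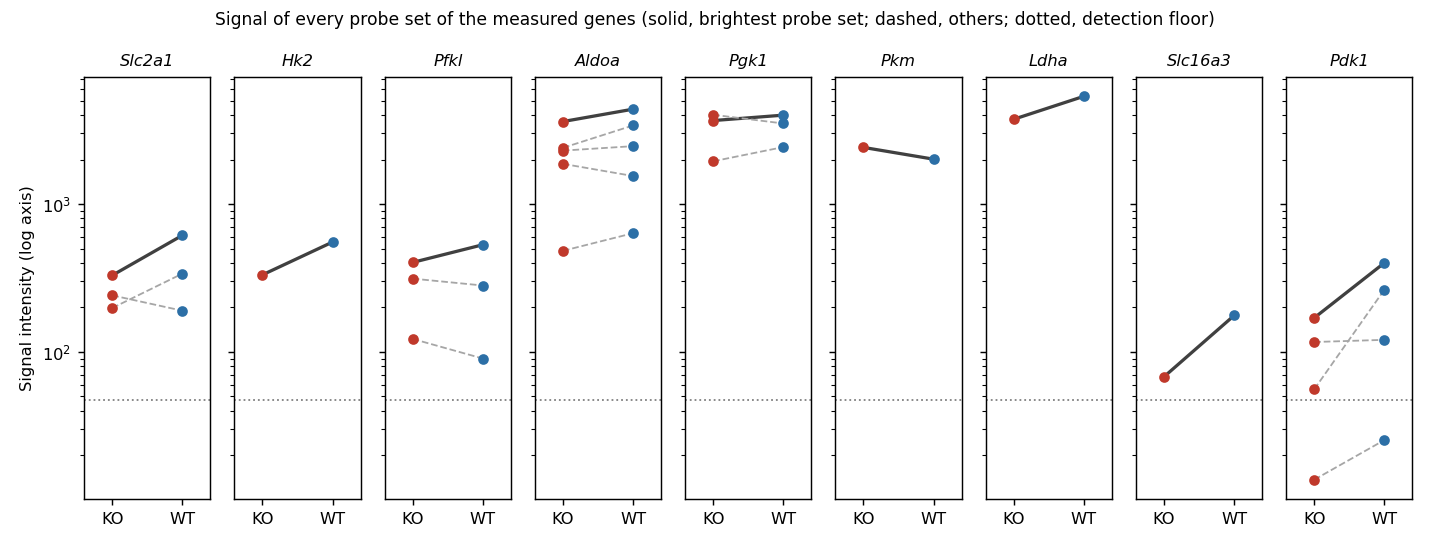
Signal intensity (log axis) of every probe set of the 9 genes on the KO array (left point of each panel) and the WT array (right point), joined by a line that is solid for the brightest probe set of the gene; the dotted line is the detection floor of 47.04. Slc16a3 and 2 of the 3 measured Pdk1 probe sets slope up clearly towards WT, while the lines of Aldoa, Pgk1 and Pkm are close to level.

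The stretches of 250 bases before the annotated start of 4 of these genes are shown because HIF acts on such genes through short motifs in their control regions. They belong to the 3 genes with the lowest ratios and to Pkm, which had the highest. Capitals mark ACGTG or GCGTG, the core of the motif bound by HIF, on either strand (CACGT or CACGC where it lies on the other strand; overlapping matches were merged). The sequences are from RefSeq, build GRCm38.p6, written 5′ to 3′ on the strand of the gene, for the first listed start of each.
Slc16a3, chr11:120948817-120949066, plus strand: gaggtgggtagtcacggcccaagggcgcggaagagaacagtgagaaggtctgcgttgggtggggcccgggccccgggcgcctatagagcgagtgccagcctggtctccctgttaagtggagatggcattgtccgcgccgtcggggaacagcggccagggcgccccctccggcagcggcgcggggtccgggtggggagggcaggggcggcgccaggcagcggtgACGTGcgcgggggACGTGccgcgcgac
Pdk1, chr2:71872974-71873223, plus strand: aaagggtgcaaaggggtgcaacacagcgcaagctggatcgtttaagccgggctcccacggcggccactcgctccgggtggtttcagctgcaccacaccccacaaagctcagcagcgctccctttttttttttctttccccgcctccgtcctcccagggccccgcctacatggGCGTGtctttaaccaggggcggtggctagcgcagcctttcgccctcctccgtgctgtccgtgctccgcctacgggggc
Slc2a1, chr4:119108495-119108744, plus strand: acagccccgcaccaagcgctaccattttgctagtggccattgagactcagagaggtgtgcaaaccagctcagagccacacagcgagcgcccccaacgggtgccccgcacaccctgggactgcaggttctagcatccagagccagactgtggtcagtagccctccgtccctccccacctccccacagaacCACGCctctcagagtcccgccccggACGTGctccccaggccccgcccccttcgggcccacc
Pkm, chr9:59656326-59656575, plus strand: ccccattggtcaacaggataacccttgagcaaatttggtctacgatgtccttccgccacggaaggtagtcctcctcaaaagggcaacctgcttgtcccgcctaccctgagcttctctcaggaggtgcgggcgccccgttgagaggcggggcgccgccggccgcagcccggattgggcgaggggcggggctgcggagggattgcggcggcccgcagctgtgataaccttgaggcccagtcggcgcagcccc
The Slc16a3 stretch held 2 matches, both close to the start, the Slc2a1 stretch 2, the Pdk1 stretch 1 and this Pkm stretch 0, while the stretch before the other listed start held 1 for Pkm and 0 for Pdk1. Among the genes not shown, the first listed stretch held 3 for Ldha, 2 each for Hk2 and Pgk1, 1 each for Pfkl and Eno1 and 0 for Aldoa. The number of matches thus did not follow the order of the ratios. Over the first listed starts of all 10 genes, 8 had a match, and over all 17 listed starts 14 did, while 38.6% of the 32851 promoter stretches of the same length in the table had one. The stretches of the 10 genes had a median of 66.4% G and C, against 52.4% over all stretches, and motifs with CG in them are more frequent in such sequence. A match is a description of letters and no evidence of binding.

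Slc2a1, which encodes the glucose carrier GLUT1 of the plasma membrane, was lower in KO by its brightest probe set and by 1 other. The brightest read 328.89 on the KO array and 613.98 on the WT array, 1.87-fold lower (log2 ratio -0.90), just short of the 2-fold threshold. A further one, 1426599_a_at, read 197.84 (KO) and 338.06 (WT), with a log2 ratio of -0.77. The third, 1426600_at, went the other way at 241.08 (KO) and 189.80 (WT), with a log2 ratio of 0.35, and the mean over the 3 was -0.44. Both lower probe sets carry the suffix _a_at, by which the array maker marks sets that match several transcripts of 1 gene. Of all measured genes, 8.8% had a lower ratio than Slc2a1. Slc2a4, which encodes GLUT4, the insulin-responsive carrier of mature muscle, read 405.19 (KO) and 392.90 (WT) and was nearly level.

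Hk2, which encodes the hexokinase that traps glucose as its 6-phosphate and is the main form in muscle, was lower in KO. Its only probe set read 331.74 on the KO array and 553.31 on the WT array, 1.67-fold lower (log2 ratio -0.74), and could not be set against another. Of all measured genes, 13.2% had a lower ratio. The other hexokinase genes over the floor were not lower. Hk1, the form present in most tissues, read 581.78 (KO) and 529.83 (WT) by its brightest probe set. Hk3 and Hkdc1 had log2 ratios of 0.30 and 0.02 by theirs. Another measured probe set of each gene was also higher in KO. For Hk1 it read 157.98 (KO) and 45.81 (WT), the WT value under the floor, so its log2 ratio of 1.75 is a bound. For Hk3 it had a log2 ratio of 0.77 and for Hkdc1 one of 0.13. These 3 genes were chosen after their values were seen.

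Among the 9 genes, Pfkl, Aldoa and Pgk1 lay within the spread between probe sets by their brightest probe sets, and the probe sets of each disagreed in direction. Pfkl, which encodes the liver form of phosphofructokinase, the committed step of the pathway, read 402.66 (KO) and 530.28 (WT) by its brightest probe set, a log2 ratio of -0.40. Its other probe sets read 312.78 (KO) and 280.97 (WT), and 122.30 (KO) and 90.09 (WT), so that both were higher in KO and the mean over the 3 was 0.07. The direction for Pfkl therefore depends on the probe set. Pfkm, the muscle form, read 237.88 (KO) and 289.49 (WT), and Pfkp, the platelet form, 178.44 (KO) and 289.77 (WT) by its brightest probe set, a log2 ratio of -0.70. The other measured Pfkp probe set was higher in KO, at 73.76 (KO) and 23.29 (WT). Its WT value was under the floor, so its log2 ratio of 0.65 is a bound.

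Aldoa encodes aldolase A, the aldolase of muscle, which splits the 6-carbon sugar. Its brightest probe set read 3611.95 on the KO array and 4381.88 on the WT array, 1.21-fold lower (log2 ratio -0.28). Of the other 4, those lower in KO read 2399.00 (KO) against 3400.59 (WT), 2297.02 (KO) against 2462.42 (WT) and 482.27 (KO) against 634.68 (WT). The remaining one was higher in KO, at 1869.53 against 1546.30 in WT. The 5 log2 ratios ran between -0.50 and 0.27, with a mean of -0.20. All 5 carry the suffix _x_at, which marks probes that can bind closely similar transcripts, so signal of related sequences was not separated from that of Aldoa.

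Pgk1, which encodes phosphoglycerate kinase, the first step that makes ATP, was level within the spread between probe sets. Its brightest probe set read 3668.44 on the KO array and 3991.74 on the WT array (log2 ratio -0.12). The other probe sets read 4016.04 (KO) and 3505.51 (WT), with a log2 ratio of 0.20, and 1945.34 (KO) and 2427.94 (WT), with one of -0.32. The first of these, 1417864_at, is the only one of the 3 without the suffix _x_at, and by it Pgk1 was slightly higher in KO.

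Pkm, which encodes the M forms of pyruvate kinase, the last step to pyruvate, was the only one of the 9 genes higher in KO by its brightest probe set. It read 2414.96 on the KO array and 2010.28 on the WT array by its single probe set, 1.20-fold higher (log2 ratio 0.26), and 72.1% of all measured genes had a lower ratio. The gene is spliced into M1 and M2 messages, the first typical of mature muscle and the second of dividing cells. A single probe set cannot show the balance of the forms.

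The 2 genes of lactate production and export differed. With the floor used here, Slc16a3 had the lowest ratio of the set, while Ldha lay within the spread between probe sets. Their median log2 ratio was -0.95, against -1.24 for Pdk1. Ldha, which encodes the lactate dehydrogenase subunit that favours the step from pyruvate to lactate, read 3742.69 on the KO array and 5352.90 on the WT array by its single probe set, 1.43-fold lower (log2 ratio -0.52). This is smaller than the spread per probe set, and 22.3% of all measured genes had a lower ratio. Over the 544 genes with a mean signal of at least 1000, the median log2 ratio was 0.09 and 41.9% were below 0. Ldhb, the subunit of oxidative tissue, read 459.29 (KO) and 537.14 (WT) by its brightest probe set, and its other 3 probe sets were also lower in KO.

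Slc16a3, which encodes MCT4, the monocarboxylate carrier by which glycolytic muscle exports lactate, had the lowest ratio of the 9 genes with the floor used here. It read 67.73 on the KO array and 176.13 on the WT array, 2.60-fold lower (log2 ratio -1.38), and only 2.4% of all measured genes had a lower ratio. Its KO value lay close above the floor of 47.04, and the gene had 1 probe set, so the ratio could not be checked against another. With a pseudocount equal to the floor added to both arrays, the log2 ratio was -0.96, short of 2-fold, and that of Pdk1 was lower, at -1.04. With the floor at the 60th percentile, Slc16a3 was at -1.03 and Pdk1 again lower, at -1.24. Slc16a1, which encodes the more widespread carrier MCT1, read 176.71 (KO) and 282.42 (WT), a log2 ratio of -0.68. Bsg encodes basigin, the membrane partner that brings both carriers to the cell surface. It was higher in KO, at 1015.81 (KO) and 531.37 (WT), a log2 ratio of 0.93.

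Pdk1 was lower in KO by all of its 3 measured probe sets, the only one of the 5 genes with several measured probe sets where all signs were shared. The brightest, 1423747_a_at, read 169.54 on the KO array and 399.74 on the WT array, 2.36-fold lower (log2 ratio -1.24). A larger difference was seen with 1435836_at, which read 55.73 (KO) and 263.17 (WT), 4.72-fold lower, with its KO value close to the floor. In contrast, 1423748_at read 116.52 (KO) and 120.57 (WT), a log2 ratio of -0.05. The last, 1434974_at, fell short of the floor, with 13.64 on the KO array and 25.30 on the WT array. The size of the Pdk1 difference thus ran between nearly none and over 2 on the log2 scale, with a mean of -1.18, and 3.5% of all measured genes had a lower ratio than its brightest probe set. The other genes of the kinase family were each measured by 1 probe set. Pdk2 read 57.05 (KO) and 98.07 (WT), and Pdk4, the form induced in muscle by fasting, 161.11 (KO) and 222.43 (WT), both lower in KO but under 2-fold. Pdk3 was higher in KO at 105.41 (KO) and 76.64 (WT).

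**Figure D2:**
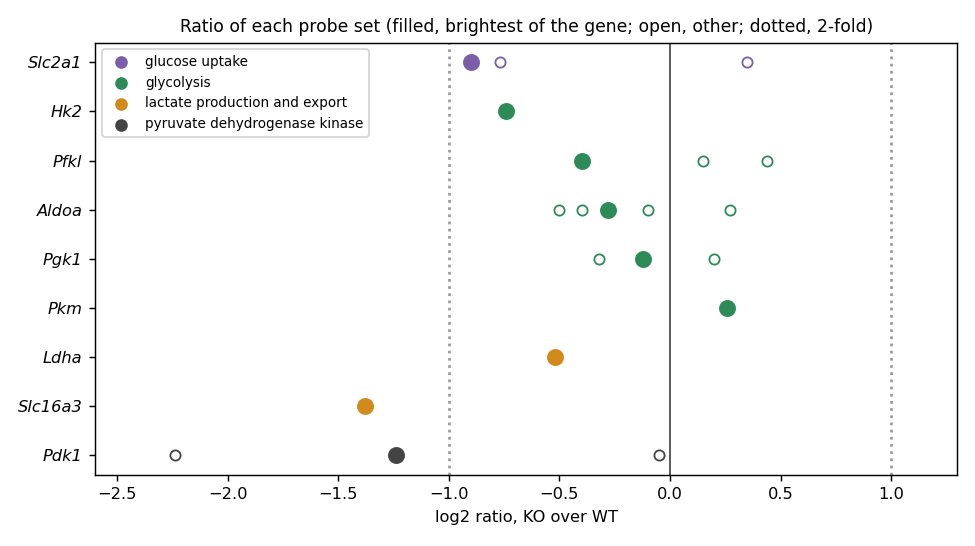
The log2 ratio (KO over WT) of each of the 21 measured probe sets, 1 row per gene, coloured by role; filled points are the brightest probe set of each gene, open points the others, and dotted lines mark 2-fold. In Slc2a1, Pfkl, Aldoa and Pgk1 the probe sets lie on both sides of 0, and in Pdk1 they run between -2.24 and -0.05.

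**Figure D3:**
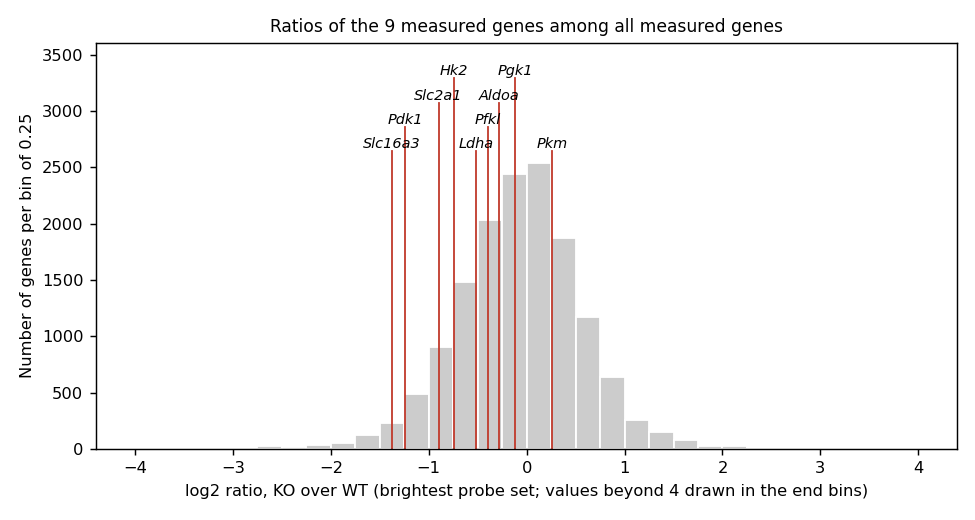
Number of genes per log2 ratio bin over all 14597 measured genes (grey bars), with a red line at the ratio of each of the 9 genes by its brightest probe set. All lines but that of Pkm lie left of 0, and those of Slc16a3 and Pdk1 lie left of -1.

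Among the 9 genes the ratios of Slc16a3, Pdk1, Slc2a1 and Hk2 were lowest, and those of Aldoa, Pgk1 and Pkm were nearer to 0. Other genes of the pathway did not keep to this order by step, with Pgam2 at -2.52 and Slc2a4 at 0.04. Neighbours in the order such as Ldha (-0.52) and Pfkl (-0.40), or Slc2a1 (-0.90) and Hk2 (-0.74), differed by less than the spread per probe set. The other glycolytic enzymes were mixed. Of 18 measured genes of that list, 11 were below 0, beside 53.7% of all measured genes, with a median log2 ratio of -0.21. In KO 2 were at least 2-fold lower, beside 6.72%, and 1 at least 2-fold higher, beside 3.73%. These shares over all measured genes also apply to the lists below. Tpi1, which encodes triosephosphate isomerase, read 1837.42 (KO) and 2728.89 (WT), with 1 of its 3 probe sets higher in KO, and Pgam1, the widespread phosphoglycerate mutase, 1949.19 (KO) and 2271.21 (WT).

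The lowest ratio of the glycolytic enzymes belonged to a muscle form. Pgam2, the phosphoglycerate mutase of mature muscle, read 59.61 on the KO array and 341.34 on the WT array, 5.73-fold lower (log2 ratio -2.52). Eno3, the enolase of mature muscle, read 1478.78 (KO) and 2430.59 (WT), a log2 ratio of -0.72. The testis form of lactate dehydrogenase, Ldhc, did not reach the floor on the KO array (24.93) and read 110.26 on the WT array, so it was at least 2.34-fold lower. Gapdhs, the sperm form of glyceraldehyde-3-phosphate dehydrogenase, read 319.84 (KO) and 157.91 (WT), 2.03-fold higher. Gapdh and Gpi1 are named only.

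Differentiated muscle genes were lower in KO by far more than the 9 genes. All 28 measured genes of the muscle list were below 0, beside 53.7% of all measured genes. At least 2-fold lower were 24 of them, beside 6.72%. Their median log2 ratio was -2.56, with summed signals of 10669 (KO) and 49718 (WT). Myh7, the slow myosin heavy chain, read 89.29 (KO) and 1156.19 (WT), and Tnnt3, the fast troponin T, 84.09 (KO) and 877.43 (WT). On the KO array Tnnc2 (37.53) and Myh8 (20.61) were under the floor, against 559.09 and 554.54 on the WT array. None of the measured markers was at 0 on either array. Fewer differentiated cells and less RNA per cell cannot be told apart in bulk samples, and the part of this difference in the values of the glycolytic genes was not tested. Myoblast markers had a median log2 ratio of 0.09. At least 2-fold higher in KO were 2 of 11, beside 3.73% of all measured genes, and 0 were at least 2-fold lower, beside 6.72%. By the brightest probe sets, 6 were above 0 and 5 below. The latter were Des (-0.89, with 0.82 at another), Itga7 (-0.62), Cdh15 (-0.55), Ncam1 (-0.19) and Myf5 (-0.01). These 5 genes were named after their values were seen. Sdc4, a syndecan, read 2148.91 (KO) and 468.01 (WT) by its brightest probe set, but had a log2 ratio of 0.22 at another. Myod1, a myogenic determination factor, read 1750.95 (KO) and 631.27 (WT) by its brightest probe set. Sdc4 and Myod1 made up a large part of the KO sum of 8988 for these markers. Des is on both lists.

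**Figure D4:**
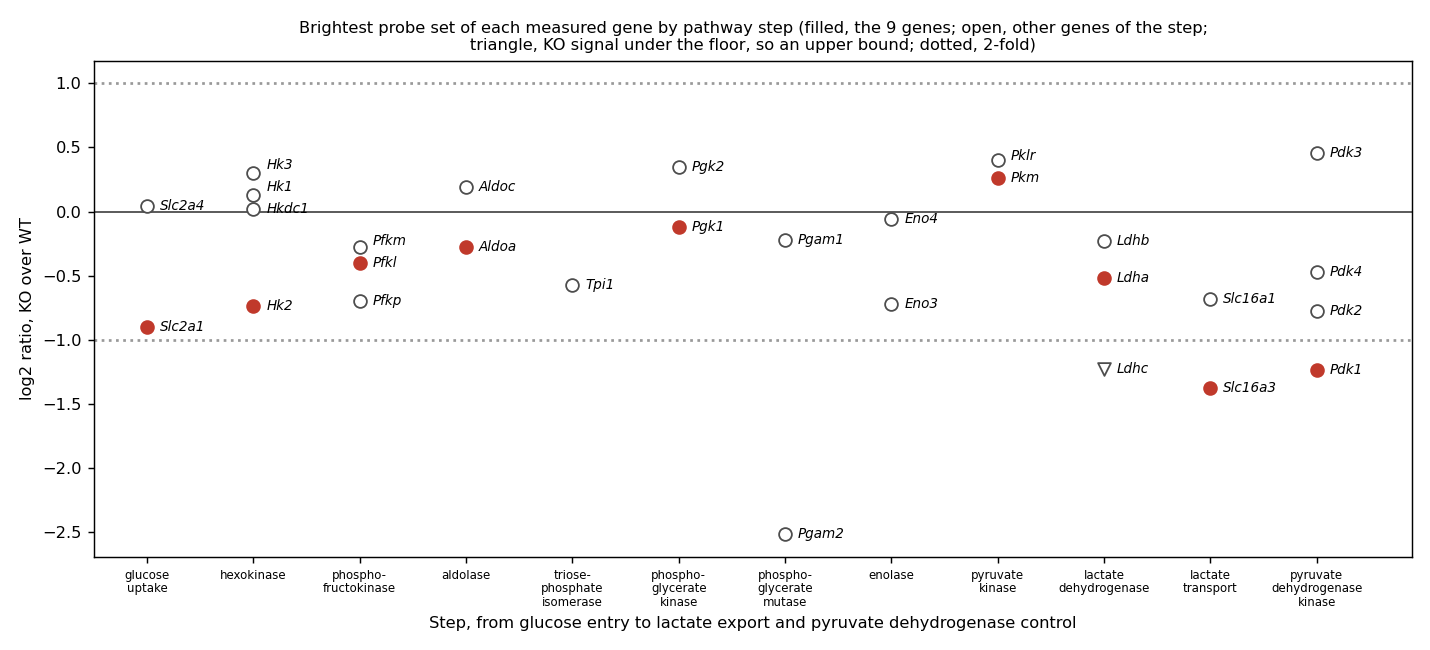
The log2 ratio (KO over WT) of the brightest probe set of each measured gene, by pathway step; filled points are the 9 genes, open points other genes of the same step, the triangle a gene whose KO signal did not reach the floor, so that its ratio is an upper bound, and dotted lines mark 2-fold. Pgam2 at -2.52 lies farthest from 0, and no gene shown reaches 2-fold above 0. The step of glyceraldehyde-3-phosphate dehydrogenase is not drawn, which leaves out Gapdhs, 2.03-fold higher in KO.

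Genes of oxygen sensing did not share one direction. Hif1a, which encodes the oxygen-regulated subunit of HIF-1, read 902.60 (KO) and 889.64 (WT) by its brightest probe set, and Arnt, its partner, 162.65 (KO) and 145.87 (WT), both nearly level. Other measured Hif1a probe sets had log2 ratios of -0.12 and 0.79, the second a bound because its WT value was under the floor. Those of Arnt ran between -0.20 and 0.47. The protein of Hif1a is controlled mainly by its breakdown, which an array does not measure. Of 10 measured hypoxia regulators, 6 were below 0, with a median of -0.15, and 1 was at least 2-fold lower, beside 6.72% of all measured genes. That gene was Hif1an, which encodes an asparagine hydroxylase that restrains HIF, at 176.19 (KO) and 375.26 (WT), 2.13-fold lower by its brightest probe set, with a log2 ratio of -0.05 at another.

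Targets of HIF outside glycolysis were split evenly. Of 25 measured genes of this list, 13 were below 0 and 12 above, with a median log2 ratio of -0.05. At least 2-fold lower were 2, beside 6.72% of all measured genes, and at least 2-fold higher were 2, beside 3.73%. Tfrc, the transferrin receptor, read 101.65 (KO) and 341.51 (WT) by its brightest probe set, 3.36-fold lower, with a log2 ratio of -0.43 at another. P4ha2, a collagen prolyl hydroxylase, read 123.82 (KO) and 250.03 (WT). Cited2, whose product competes with HIF for its coactivator, read 2429.39 (KO) and 1033.00 (WT) by its brightest probe set, 2.35-fold higher. Another Cited2 probe set had a log2 ratio of 0.42, short of 2-fold. Jmjd6 was 2.89-fold higher at 641.04 (KO) and 221.50 (WT), but its other probe sets had log2 ratios of -0.82 and -0.73. Vegfa, the angiogenic growth factor, read 987.73 (KO) and 716.41 (WT), and Bnip3, a mitophagy receptor, 335.28 (KO) and 431.50 (WT). The median of this list thus lay close to that of all measured genes (-0.06).

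Genes of the pentose phosphate pathway, which branches off glycolysis at glucose 6-phosphate, had a median log2 ratio farther below 0 than the 9 genes. Of 7 measured, 5 were below 0 with a median of -0.65, and H6pd, the form of the endoplasmic reticulum, was 2.18-fold lower at 160.53 (KO) and 349.66 (WT). Pgd, which encodes 6-phosphogluconate dehydrogenase, read 307.30 (KO) and 608.90 (WT), a log2 ratio of -0.99, and its other 3 probe sets were also lower in KO. Taldo1, transaldolase, had a log2 ratio of -0.89 and Rpia, ribose 5-phosphate isomerase, one of -0.65. The 2 genes above 0 were Tkt and Pgls. Tkt read 1254.49 (KO) and 1122.11 (WT) by its brightest probe set, a log2 ratio of 0.16. Its other 2 measured probe sets were also higher in KO. Pgls had a log2 ratio of 0.19. Rpe was lower in KO by its brightest probe set but higher by another. Pgd, Taldo1, Rpia, Tkt, Pgls and Rpe were chosen after their values were seen. Glycogen and gluconeogenesis genes had a median of -0.26 over 12, with Phkb, a phosphorylase kinase subunit, 3.57-fold lower at 48.41 (KO) and 172.65 (WT), the first close to the floor. In that list Pgm2 was 2.03-fold higher in KO, at 148.63 (KO) and 73.14 (WT). The 4 measured bifunctional phosphofructokinase genes were split, Pfkfb2 reading 186.54 (KO) and 107.72 (WT) and Pfkfb4 reading 102.61 (KO) and 175.39 (WT).

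Other sugar and monocarboxylate carriers had 9 measured genes and a median of 0.09, and 0 of them differed by 2-fold either way. Pyruvate dehydrogenase and its regulators had a median of -0.13 over 13, also with 0 at least 2-fold different, and Pcx, pyruvate carboxylase, read 50.96 (KO) and 97.23 (WT). The tricarboxylic acid cycle had a median of -0.08 across 15 genes. The only one at least 2-fold higher was Idh3a, a subunit of isocitrate dehydrogenase, at 989.72 (KO) and 442.67 (WT), while another 2 of its 4 probe sets read lower in KO. The medians of both mitochondrial lists lay nearer to 0 than that of the 9 genes.

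**Figure D5:**
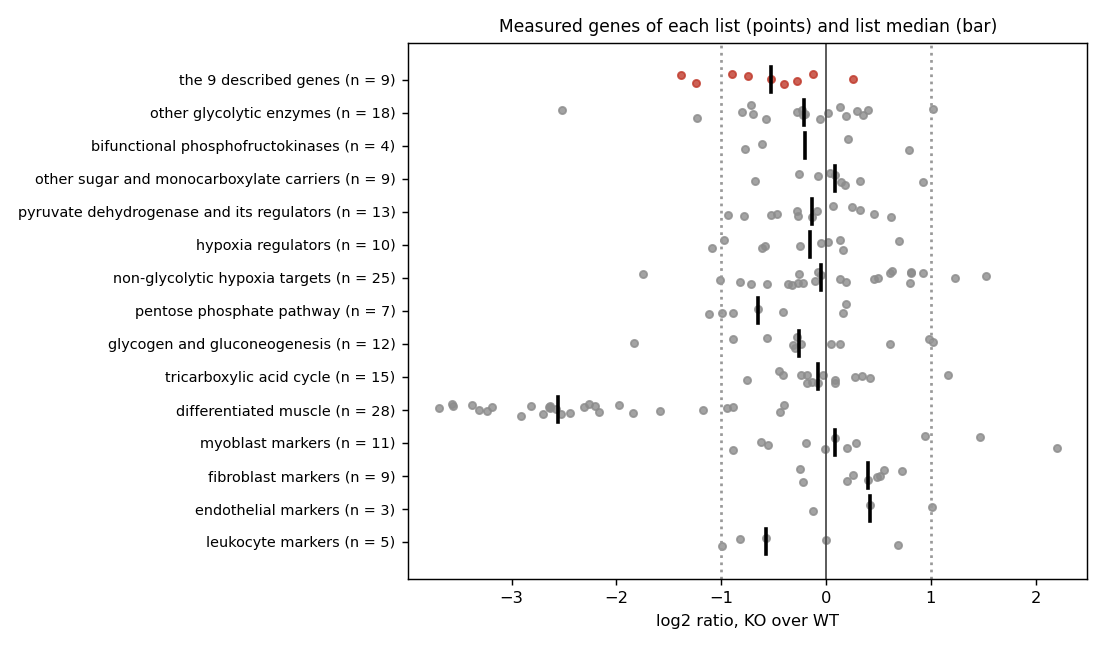
The log2 ratio (KO over WT) of every measured gene of each list (points, spread vertically for legibility; the number measured in parentheses) with the list median (black bar) and dotted lines at 2-fold; genes under the floor on 1 array are drawn at their bound. The 9 genes have a median of -0.52, and differentiated muscle genes, with a median of -2.56, stand apart from all other lists.

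Markers of other cells that a muscle culture could hold were also read by their brightest probe sets, and ratios with 1 array under the floor are bounds. Fibroblast markers had a median of 0.40 over 9 measured of 12, with summed signals of 3083 (KO) and 2314 (WT), and 0 called at 2-fold. Endothelial markers had 3 of 8 measured, with sums of 259 (KO) and 184 (WT), and Esam at least 2.01-fold higher in KO. Leukocyte markers had 5 of 8 measured, with sums of 657 (KO) and 762 (WT) and a median of -0.57, and Spi1 read 62.02 (KO) and 123.04 (WT). Their part in the values of the 9 genes was not tested.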

How the data were processed

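Total RNA of 1 KO and 1 WT culture was converted to biotin-labelled cRNA and hybridised to 1 array each, per the labels' protocols. The authors deposited linear intensities, 1 for each probe set on each array. For the summarising of probes and the scaling of arrays, the method is not given in the sources used here. Trimmed means (2% off each end) were 125.53 (KO) and 126.12 (WT), and no scaling was added. The array records matched in 40 of 42 fields, per the file headers.

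The annotation gave 1 symbol to 34945 of the 45037 probe sets, several to 932 and none to 9160. Those with 1 symbol were named, and 34741 of them had their symbol brought up to date through a RefSeq gene table (GRCm38.p6). The floor of 47.04, the 40th percentile of both arrays, replaced lower values ahead of the log2 step. Each gene took the value of its brightest probe set by mean log2 signal. Log2 ratios are KO over WT, and folds are the higher signal over the lower, with the direction named. Where 1 array was under the floor the fold is a bound. With 1 array per group no p-value was computed and 2-fold was the threshold. The calculation was tested on simulated data, which checks the arithmetic only, since their noise was set well below the spread between probe sets. Python 3.11.15 with pandas 2.3.3 was used, and statsmodels 0.14.6 for loess.

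The genes, lists and names were chosen with earlier results of these data known. All members were named, with 20 further genes whatever their value. From each list came up to 4 measured genes past 2-fold, those farthest from 0 first, or else the 2 farthest from 0. Alternatives were quantile, median and loess scaling, other floors, a pseudocount, the mean over probe sets, leaving out _s_at and _x_at probe sets, and other thresholds. Setting the median ratio of all measured genes to 0 was added after seeing the data.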

Additional observations from a re-analysis of the deposited data

How the results depend on the processing

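Each gene's log2 ratio moved by less than 0.63, the spread per probe set, under every alternative that gave a value. The sign turned for Pfkl with the mean over probe sets (0.07) and for Pgk1 without _s_at and _x_at probe sets (0.20), which leave Aldoa with no value and 8 genes. The median of the genes minus that of all measured genes ran between -0.60 and -0.42. The count at least 2-fold lower, 2 as reported, was 1 with a pseudocount equal to the floor (3.3% of all measured genes), 4 at 1.5-fold (19.3%) and 0 at 3-fold (1.5%), and 2 under the other alternatives run. The count of probe sets below 0, 15 as reported, was 9 without _s_at and _x_at probe sets. That setting drops all Aldoa probe sets and those of Pgk1 with the suffix _x_at, so these counts have unlike totals and cannot be compared directly. By gene, 6 of 8 were then below 0, beside 51.7% of all measured genes. The count at least 2-fold higher was 0 throughout. Equal array medians moved the median of all measured genes to -0.10, and loess scaling to -0.02. Of all genes at least 2-fold different, 64.3% were lower in KO as deposited and 56.9% with loess scaling. No paired analysis was possible because each group has 1 array. Signal near the floor limits Slc16a3 and 1 Pdk1 probe set, and 4 genes had 1 measured probe set.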
